A study of Arabidopsis thaliana with 8 samples.

Results

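Transcript levels of 9 genes of root hair growth were followed in *Arabidopsis thaliana* seedlings that overexpressed the MYB factor *TT2* or *MYB5* and in the wild type Col-0. The genes were chosen by name, as the loci of *RHD6* (AT1G66470), *RSL2* (AT4G33880), *RSL4* (AT1G27740), *COBL9* (AT5G49270), *EXPA7* (AT1G12560), *EXPA18* (AT1G62980), *PRP1* (AT1G54970), *PRP3* (AT3G62680) and *LRX1* (AT1G12040), and are 9 of the 28496 genes of the count table. All 9 passed the filter on low counts that kept 20382 genes for the tests. RNA came from whole seedlings, 6 days old and unstressed, grown in vitro at 22 °C with 8 h of light per day. There were 3 libraries of *TT2* OE (35S::*TT2*; O2, R2 and U2), 2 of *MYB5* OE (35S::*MYB5*; N2 and Q2) and 3 of Col-0 (M2, P2 and S2). The 35S promoter of cauliflower mosaic virus is active in most plant cells, so the transgenes were not restricted to the root. Which of the study's independent transgenic lines was sequenced is not given in the sources used here. Libraries are also grouped below into round 1 (O2, N2 and M2), round 2 (R2, Q2 and P2) and round 3 (U2 and S2, with no *MYB5* OE library). The labels name no rounds. They were recognised in these same counts and follow the library letters, so differences between rounds are given as descriptions without a test.

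Root hairs are tubular outgrowths of single epidermal cells that take up water and minerals. In the epidermis a complex of a MYB factor (WER), a bHLH factor (GL3 or EGL3) and the WD-repeat protein TTG1 switches on *GL2* in the files of cells that stay hairless, and GL2 keeps the hair programme off. TT2 and MYB5 are known from complexes of the same build in the seed coat. In cells that form hairs, the bHLH factor RHD6 starts the outgrowth, and the related bHLH factors RSL2 and RSL4 then drive its elongation. Growth at the tip needs wall proteins: the expansins EXPA7 and EXPA18 loosen the wall, COBL9 is a membrane-anchored COBRA-like protein needed for tip growth, PRP1 and PRP3 are proline-rich structural proteins, and LRX1 is a leucine-rich repeat extensin that shapes the hair wall.

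Promoter sequences are shown first because a known element of hair-expressed genes lies before some of the 9 genes and not before others. The root hair element, known from promoters that include that of *EXPA7*, was searched for on both strands in the 500 bases before each annotated gene start, with a spacer of either length in use for it. It was found in 5 of the 9 genes, all of them expansin, *PRP* or *LRX* genes, and in 309 of the 20299 promoters of tested genes (1.52%). Since the element was defined on genes of this kind, its presence in them is no independent result. The matches are printed in the direction of the gene with 6 flanking bases on either side, the element in capitals. The coordinates include the flanking bases, whereas the distance to the gene is counted from the first capital. The sequences and positions are from the TAIR10.1 assembly and its RefSeq annotation, each gene lying on the plus strand.
*EXPA7*, chr1:4276421-4276449, starting 78 bases before the gene: aaaaggATAGTGATCCGCACGTAgccacc
*EXPA18*, chr1:23331517-23331544, starting 40 bases before the gene: aaaacaAACATGAACGCACGTCcattac
*PRP1*, chr1:20504766-20504794, starting 129 bases before the gene, element on the minus strand: cttttaATCGTGCATAACACTATtacaat
*PRP3*, chr3:23182549-23182577, starting 167 bases before the gene, element on the minus strand: tttttgATCGTGCATTACACTTAggtatg
*LRX1*, chr1:4069893-4069920, starting 93 bases before the gene, element on the minus strand: tctaggAACGTGCGTCCAAGTTtgagga

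The 500 bases before *RHD6* (chr1:24795214-24797015, plus strand), *RSL2* (chr4:16239363-16241169, minus strand), *RSL4* (chr1:9654475-9656089, plus strand) and *COBL9* (chr5:19971884-19974530, minus strand) held no match, which says only that these letters are not in this window. The *PRP* genes, whose levels ran closest to those of *LRX1*, also shared a stretch near the gene start. Over 40 bases without a gap, chosen as the most similar pair within 150 bases of the starts, 36 bases were identical and are in capitals.
*PRP1*, chr1:20504860-20504899, starting 41 bases before the gene: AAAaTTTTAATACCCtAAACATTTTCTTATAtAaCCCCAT
*PRP3*, chr3:23182647-23182686, starting 75 bases before the gene: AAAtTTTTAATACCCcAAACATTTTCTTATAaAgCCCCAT

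The stretch was looked for after the values of both genes had been seen. The site II element, the motif that the study examined as a binding site of TT2 and MYB5, was searched for as TGGGCC or TGGGCT on both strands. This is shorter than the form the study gives, which has an A or T in front. The shorter form occurred in 3 of the 9 promoters (*RSL2*, *COBL9* and, at 2 places, *PRP3*) and in 28.9% of the promoters of tested genes. The match of *RSL2* has a G in front and the minus-strand match of *PRP3* a C, so both fall outside the study's form. The share of all promoters with the study's form was not counted. The G-box CACGTG occurred in 0 of the 9 and in 10.3% of all, and the evening element AAAATATCT in 0 of the 9 and in 4.47% of all.

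Depth ran from 35496351 to 48428855 counts per library, and the 9 genes were read from 56 counts (*RSL2*, TT2 OE U2) to 3694 counts (*PRP3*, MYB5 OE Q2) in a library. Levels are given as CPM, counts scaled to library size with TMM factors, a normalization that evens out differences in the make-up of libraries. Transgene counts fitted the labels: *TT2* had 17614 to 23962 counts in TT2 OE, against 3 to 12 in Col-0, and *MYB5* had 10896 and 11241 counts in MYB5 OE, against 1 to 7 in Col-0. The study describes the replicates of a genotype as independent biological replicates. In whole seedlings, fewer hair cells and less RNA per hair cell cannot be told apart.

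Per kilobase of transcript, the levels of the 9 genes ran from the wall proteins down to the regulators. The structural proteins led, with means over the 8 libraries of 44.3 CPM per kb for *PRP3*, 17.99 for *PRP1* and 8.93 for *LRX1*. The expansins lay below them, at 6.58 CPM per kb for *EXPA7* and 5.00 for *EXPA18*, and *COBL9* had 3.65. The regulators were lowest, at 2.21 CPM per kb for *RSL4*, 1.73 for *RSL2* and 1.57 for *RHD6*. The ranges over the libraries overlapped for every pair of neighbours in this order. The spread between libraries was also uneven: the highest library exceeded the lowest 3.33-fold for *PRP1*, 2.51-fold for *PRP3* and 2.37-fold for *LRX1*, but 1.47-fold for *RHD6* and 1.53-fold for *EXPA18*.

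**Figure D1:**
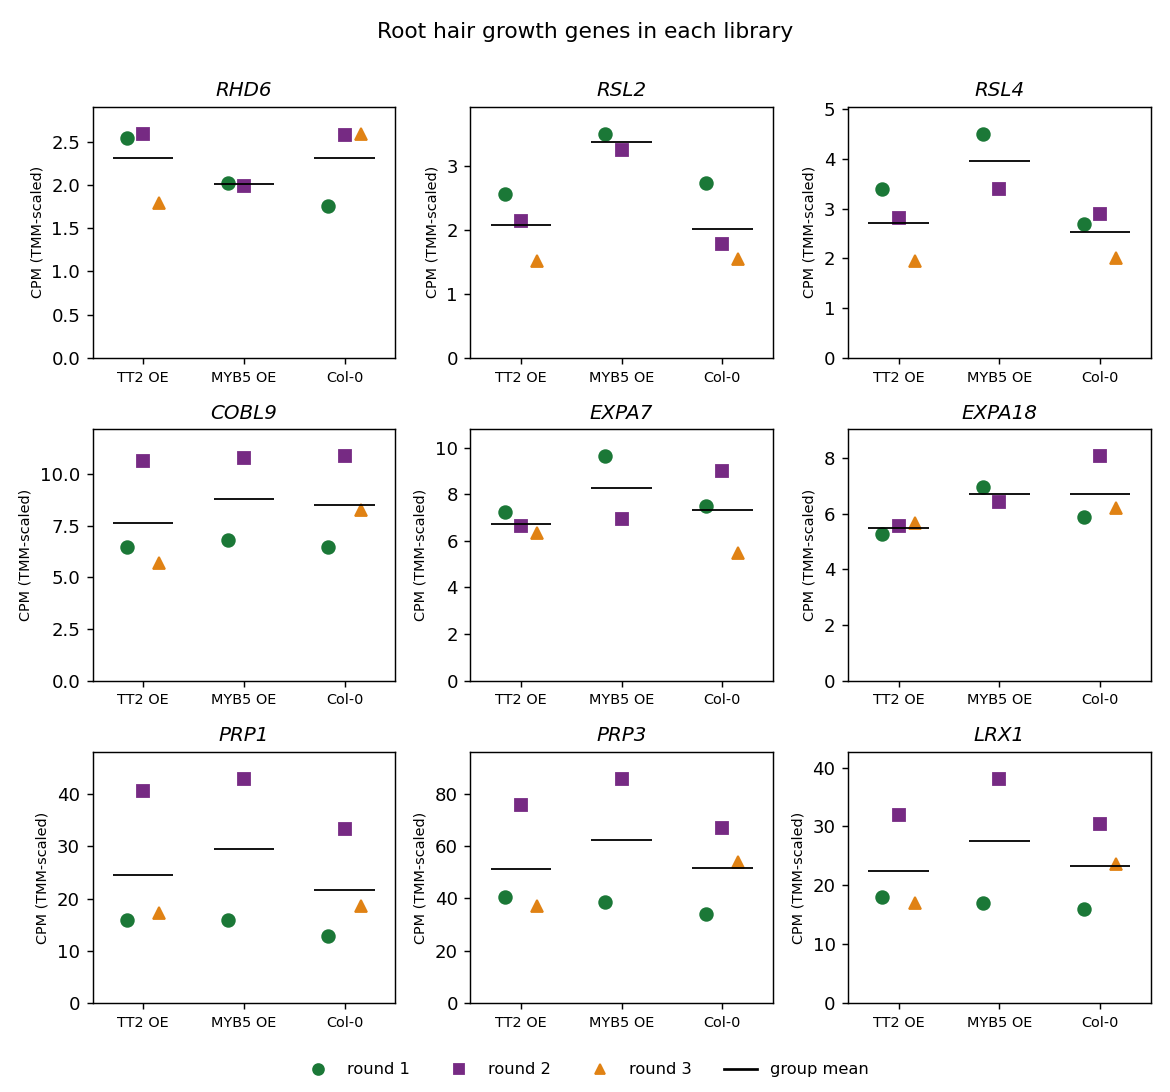
Level of each of the 9 root hair growth genes in every library, in TMM-scaled CPM on an axis from 0, for TT2 OE, MYB5 OE and Col-0; symbols mark the round and bars the mean of the genotype. The round 2 libraries (squares) stand above all others for *COBL9*, *PRP1*, *PRP3* and *LRX1*, from 10.7 to 10.9 CPM for *COBL9* and from 33.3 to 42.9 CPM for *PRP1*.

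The first question was whether overexpression of either MYB factor changed these genes. With round as a term in the model, edgeR's quasi-likelihood test called 0 of the 9 genes in TT2 OE against Col-0, where it called 1.41% of all genes tested, 0 of 9 in MYB5 OE against Col-0 (0.167% of all genes) and 0 of 9 in TT2 OE against MYB5 OE (0.172% of all genes), at an adjusted p under 0.05. DESeq2 called 0 of the 9 in each comparison as well. At an unadjusted p under 0.05, edgeR counted 0 of the 9 in TT2 OE against Col-0 (6.85% of all genes were higher and 5.91% lower), 3 of the 9, all higher, in MYB5 OE against Col-0 (3.89% of all genes were higher and 4.37% lower) and 1 of the 9, lower, in TT2 OE against MYB5 OE (2.14% of all genes were higher and 1.77% lower).

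Among the regulators, *RHD6*, which starts the hair, had 2.54, 2.59 and 1.79 CPM in TT2 OE (O2, R2 and U2), 2.03 and 1.99 CPM in MYB5 OE (N2 and Q2), and 1.76, 2.58 and 2.59 CPM in Col-0 (M2, P2 and S2). The genotypes overlapped, and the ratio of TT2 OE to Col-0 was 1.44 in round 1, 1.01 in round 2 and 0.691 in round 3. Its fitted log2 ratio was 0.00 ± 0.22 (SE) in TT2 OE and -0.24 ± 0.27 in MYB5 OE, both against Col-0.

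*RSL2*, which acts in hair elongation beside *RSL4*, had 2.56, 2.14 and 1.52 CPM in TT2 OE, 3.5 and 3.24 CPM in MYB5 OE, and 2.74, 1.79 and 1.54 CPM in Col-0. Both MYB5 OE libraries lay above every other library. The ratio of MYB5 OE to Col-0 was 1.28 in round 1 and 1.81 in round 2, and the fitted log2 ratio was 0.59 ± 0.22 (95% interval 0.11 to 1.07). The unadjusted p was 0.0197 by edgeR's test, and the adjusted p of 0.476 did not pass. Against MYB5 OE, TT2 OE had a fitted log2 ratio of -0.54 ± 0.22 for *RSL2*, with an adjusted p of 1 by the same test.

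*RSL4*, whose amount is known to set the length of the hair, had 3.40, 2.81 and 1.95 CPM in TT2 OE, 4.51 and 3.40 CPM in MYB5 OE, and 2.68, 2.89 and 2.01 CPM in Col-0. The MYB5 OE libraries were again above all of Col-0, with ratios of 1.68 in round 1 and 1.18 in round 2. The fitted log2 ratio of MYB5 OE to Col-0 was 0.46 ± 0.21 (unadjusted p = 0.0459, adjusted p = 0.601 by edgeR). In TT2 OE the log2 ratio to Col-0 was 0.09 ± 0.18 for *RSL4* and 0.05 ± 0.20 for *RSL2*. Complete separation of MYB5 OE above Col-0, as for *RSL2* and *RSL4*, was met in 3.9% of all genes tested. TT2 OE lay wholly below MYB5 OE for *RSL2*, *RSL4* and *EXPA18*, and for 3.39% of all genes. For *RSL4* this was close to a tie, at 3.400 CPM in TT2 OE O2 and 3.404 CPM in MYB5 OE Q2. Neither separation takes account of round 3, which has no MYB5 OE library and the lowest values of *RSL2* and *RSL4*.

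The expansins were the steadiest of the wall genes. *EXPA7* had 7.23, 6.64 and 6.34 CPM in TT2 OE, 9.64 and 6.95 CPM in MYB5 OE, and 7.52, 9.02 and 5.49 CPM in Col-0. *EXPA18* had 5.27, 5.56 and 5.66 CPM in TT2 OE, 6.96 and 6.44 CPM in MYB5 OE, and 5.87, 8.06 and 6.20 CPM in Col-0. The 3 TT2 OE values of *EXPA18* lay below those of every other library, close to the lowest Col-0 value of 5.87 CPM; 2.71% of all genes had TT2 OE wholly below Col-0. The log2 ratio of TT2 OE to Col-0 was -0.28 ± 0.15 for *EXPA18*, the lowest adjusted p of the 9 genes in that comparison (0.460 by edgeR), and -0.11 ± 0.16 for *EXPA7*. In MYB5 OE these ratios were -0.01 ± 0.17 for *EXPA18* and 0.06 ± 0.18 for *EXPA7*.

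The structural wall genes and *COBL9* varied far more within a genotype than between genotypes. *PRP1*, a proline-rich protein gene, had 15.99, 40.7 and 17.2 CPM in TT2 OE, 15.97 and 42.9 CPM in MYB5 OE, and 12.9, 33.3 and 18.7 CPM in Col-0. *PRP3*, the most abundant of the 9, had 40.6, 75.8 and 37.0 CPM in TT2 OE, 38.6 and 85.6 CPM in MYB5 OE, and 34.0, 67.0 and 53.9 CPM in Col-0. In both genes the second library of each genotype was the highest, and the genotypes overlapped throughout. *LRX1*, the extensin of the hair wall, had 18.03, 31.96 and 17.1 CPM in TT2 OE, 17.1 and 38.1 CPM in MYB5 OE, and 16.1, 30.4 and 23.6 CPM in Col-0. *COBL9* had 6.50, 10.7 and 5.69 CPM in TT2 OE, 6.83 and 10.8 CPM in MYB5 OE, and 6.47, 10.9 and 8.25 CPM in Col-0. The same second libraries led again. The log2 ratio of TT2 OE to Col-0 was 0.16 ± 0.10 for *PRP1*, -0.03 ± 0.13 for *PRP3*, -0.07 ± 0.12 for *LRX1* and -0.18 ± 0.13 for *COBL9*. In MYB5 OE it was 0.27 ± 0.12 for *PRP1* (unadjusted p = 0.0475, adjusted p = 0.601 by edgeR), 0.14 ± 0.16 for *PRP3*, 0.11 ± 0.15 for *LRX1* and -0.05 ± 0.16 for *COBL9*. *PRP* and *LRX* genes code for repeated sequence, and how the authors' counting placed reads shared with near copies is not given, so their levels are uncertain to that extent.

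**Figure D2:**
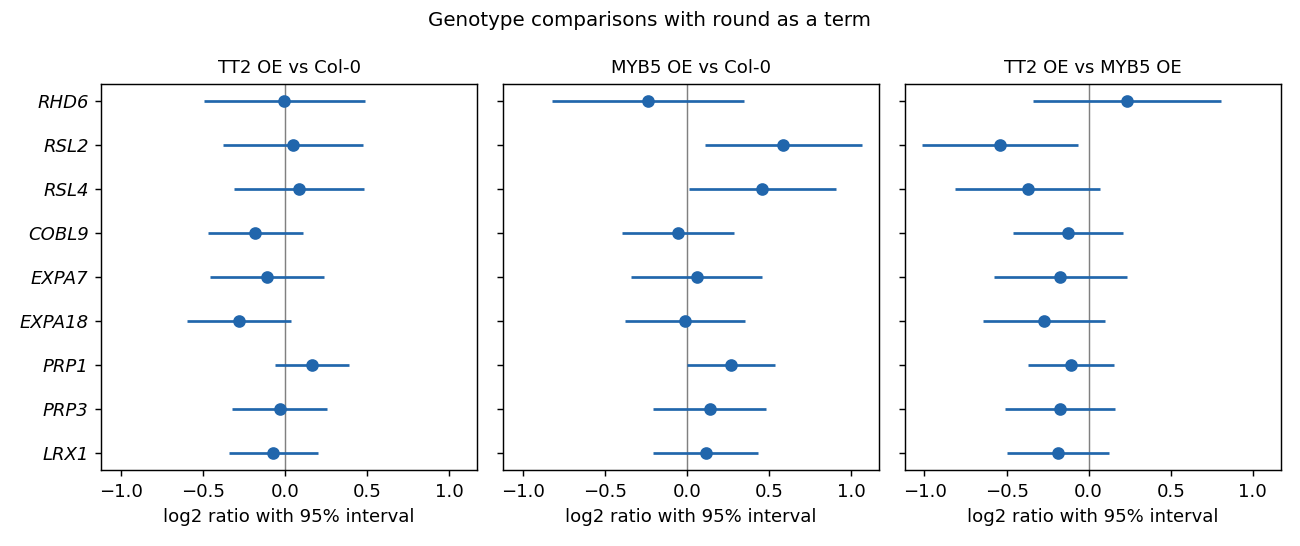
Fitted log2 ratios of the 9 genes (points) with 95% intervals (lines) for TT2 OE against Col-0, MYB5 OE against Col-0 and TT2 OE against MYB5 OE, from the model with round as a term; 0 means equal levels. All points lie between -0.54 and 0.59, and the interval of *RSL2* leaves out 0 in both comparisons that involve MYB5 OE, before adjustment for the number of genes.

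The intervals set how large a change could have gone unnoticed. For TT2 OE against Col-0 they reached from 0.660-fold (*EXPA18*) to 1.40-fold (*RHD6*) over the 9 genes, and for MYB5 OE, with 2 libraries, from 0.566-fold (*RHD6*) to 2.09-fold (*RSL2*). The median log2 ratio of the 9 genes was -0.03 in TT2 OE and 0.11 in MYB5 OE against Col-0, beside 0.00 and 0.00 over all genes tested. It was -0.17 in TT2 OE against MYB5 OE, where 8 of the 9 ratios were negative, beside 0.01 over all genes. Within a round, no ratio between genotypes went beyond 2-fold in either direction. TT2 OE to Col-0 ranged from 0.687 (*PRP3*, round 3) to 1.44 (*RHD6*, round 1) over 27 pairs, of which 12 were above 1. By round, TT2 OE was above Col-0 in 6 of the 9 genes in round 1, in 5 in round 2 and in 1 (*EXPA7*) in round 3. MYB5 OE to Col-0 ranged from 0.770 (*EXPA7*, round 2) to 1.81 (*RSL2*, round 2) over 18 pairs, above 1 in 9 of 9 genes in round 1 and in 5 of 9 in round 2. TT2 OE to MYB5 OE ranged from 0.661 to 1.30 over 18 pairs, of which 5 were above 1. These comparisons share libraries: MYB5 OE and TT2 OE are set against the same Col-0 libraries.

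The second question was how the genes differed between the rounds of libraries. *PRP1* was the gene that went furthest: the ratio of round 2 to round 1 was 2.55 in TT2 OE, 2.69 in MYB5 OE and 2.58 in Col-0, a fitted 2.60-fold (log2 ratio 1.38 ± 0.10, SE). It was the only one of the 9 at least 2-fold higher in every genotype, as were 5.15% of all genes tested, and none was 2-fold lower (3.56% of all genes). *PRP3* was 1.87-fold higher in TT2 OE, 2.22-fold in MYB5 OE and 1.97-fold in Col-0. *LRX1* was 1.77-fold higher in TT2 OE, 2.23-fold in MYB5 OE and 1.89-fold in Col-0. *COBL9* differed less, by 1.64-fold in TT2 OE, 1.58-fold in MYB5 OE and 1.68-fold in Col-0.

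In these 4 genes every round 2 library lay above every library of rounds 1 and 3; by a rule chosen after the values had been seen, the same held for 16.4% of all genes tested. None of the 9 had every round 2 library below the others (15.8% of all genes). The other 5 genes, the 3 regulators and both expansins, overlapped between the rounds. For *EXPA7* the ratio of round 2 to round 1 was 0.919 in TT2 OE, 0.721 in MYB5 OE and 1.20 in Col-0, so the genotypes did not move one way. The presence of the root hair element did not follow this division, since *EXPA7* and *EXPA18* carry it and *COBL9* has no match.

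**Figure D3:**
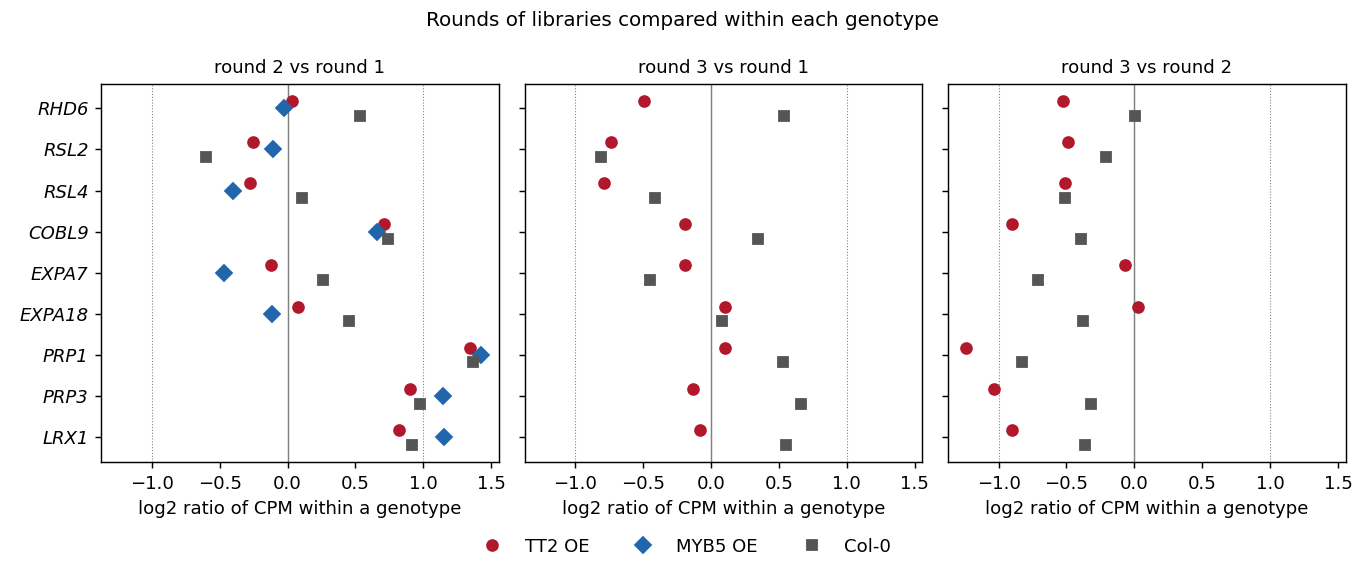
Log2 ratio of CPM between rounds within each genotype for the 9 genes; points are single pairs of libraries, dotted lines mark a 2-fold difference and MYB5 OE has no library in round 3. *COBL9*, *PRP1*, *PRP3* and *LRX1* lie to the right in round 2 against round 1, at fitted values of 0.70 to 1.38, and to the left in round 3 against round 2.

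Round 3 stood below round 2 for all 9 genes in the fitted values, from -1.04 ± 0.12 on the log2 scale for *PRP1* to -0.13 ± 0.17 for *EXPA18*. None was at least 2-fold lower in both TT2 OE and Col-0, as 3.68% of all genes were, or higher, as 1.6% were. The fall was deeper in TT2 OE for the structural genes: the ratio of round 3 to round 2 was 0.423 in TT2 OE and 0.562 in Col-0 for *PRP1*, 0.488 in TT2 OE and 0.803 in Col-0 for *PRP3*, and 0.534 in TT2 OE and 0.777 in Col-0 for *LRX1*. With 1 library for each genotype and round, this difference between genotypes was not tested. Left with TT2 OE alone, by leaving out Col-0 P2 or S2, 2 of the 9 genes (*PRP1* and *PRP3*) were past 2-fold.

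Against round 1, round 3 differed in the regulators of elongation instead. *RSL2* was at 0.592 of round 1 in TT2 OE and at 0.563 in Col-0, and *RSL4* at 0.574 in TT2 OE and at 0.749 in Col-0. *RSL2* had its lowest values of the series in round 3, at 1.52 CPM in TT2 OE and 1.54 CPM in Col-0, and *RSL4* likewise at 1.95 and 2.01 CPM. *EXPA7* was also lowest in round 3, at 6.34 CPM in TT2 OE and 5.49 CPM in Col-0. The share of all genes that were lowest in round 3 was not counted. None of the 9 genes passed the 2-fold rule in this comparison, which 3.88% of all genes did upward and 5.07% downward.

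Clock genes differed between the same rounds by far more. *LHY*, a MYB factor of the morning, had 1.03 to 1.66 CPM in round 1, 309.5 to 337.0 CPM in round 2 and 984.1 to 1057 CPM in round 3. *TOC1*, a clock gene of the evening, had 205.3 to 251.9 CPM in round 1, 18.7 to 21.6 CPM in round 2 and 21.01 to 23.9 CPM in round 3. *LHY* was thus highest in round 3, whereas *COBL9*, *PRP1*, *PRP3* and *LRX1* were highest in round 2. Whether the hour of harvest has a part in the differences of the root hair genes was not tested.

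The 9 genes fell into sets when compared over the 8 libraries, as a description in which the points share the rounds above. *PRP3* and *LRX1* followed each other most closely (Pearson's r of log2 CPM 0.997, 8 libraries), *PRP1* had an r of 0.968 with either, and *COBL9* an r of 0.96 with *PRP3* and with *LRX1*. *RSL2* and *RSL4* had an r of 0.882 with each other, and *RSL4* an r of 0.763 with *EXPA7*. Between the sets there was little likeness: *RSL4* had an r of 0.101 with *PRP1* and *RSL2* an r of -0.0105. *RHD6* had its highest r with *COBL9*, at 0.535.

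Other genes of the hair were compared through lists. No list held a called gene in any of the 3 genotype comparisons, by edgeR or by DESeq2. Of 25 other genes of the hair wall and of the root hair specific (RHS) group, 3 had an unadjusted p under 0.05 in TT2 OE against Col-0 (1 higher, 2 lower; 6.85% of all genes were higher and 5.91% lower). In MYB5 OE against Col-0 there were 4, all higher (3.89% of all genes), and in TT2 OE against MYB5 OE 5, all lower (1.77% of all genes). The median log2 ratio of the 25 was -0.09 in TT2 OE and 0.16 in MYB5 OE, both against Col-0. In TT2 OE against MYB5 OE it was -0.25, with 23 of 25 ratios negative, beside a median of 0.01 over all genes tested. These ratios all come from the same libraries, so they are not 25 separate observations. The lowest adjusted p there was that of *XTH14*, a xyloglucan-modifying enzyme gene, which had 18.6, 21.4 and 17.4 CPM in TT2 OE and 22.6 and 28.9 CPM in MYB5 OE (log2 ratio -0.38 ± 0.11, adjusted p = 0.559 by edgeR).

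The wall and RHS genes also set round 2 apart. In 14 of the 25, every round 2 library lay above all libraries of rounds 1 and 3 (16.4% of all genes), and in 0 of 25 below. The median fitted log2 ratio of round 2 to round 1 was 0.40, beside -0.03 over all genes tested, and that of round 3 to round 2 was -0.61, beside 0.02. The most abundant of them was AT5G06640, an extensin gene, with 84.5 CPM in TT2 OE, 102.4 CPM in MYB5 OE and 70.7 CPM in Col-0 in round 2, against 40.7, 34.3 and 33.0 CPM in round 1. *EXT12*, also an extensin, had 81.4 CPM in TT2 OE, 102.2 CPM in MYB5 OE and 72.5 CPM in Col-0 in round 2, against 43.6, 36.2 and 30.3 CPM in round 1. The 4 genes at least 2-fold higher in every genotype were AT5G06640, its neighbour AT5G06630, *LRX2*, the paralog of *LRX1*, and *RHS9*. They are named after their values were seen, and reads of extensin genes may be shared between near copies. The root hair element was found before 9 of the 25 genes (36.0%).

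**Figure D4:**
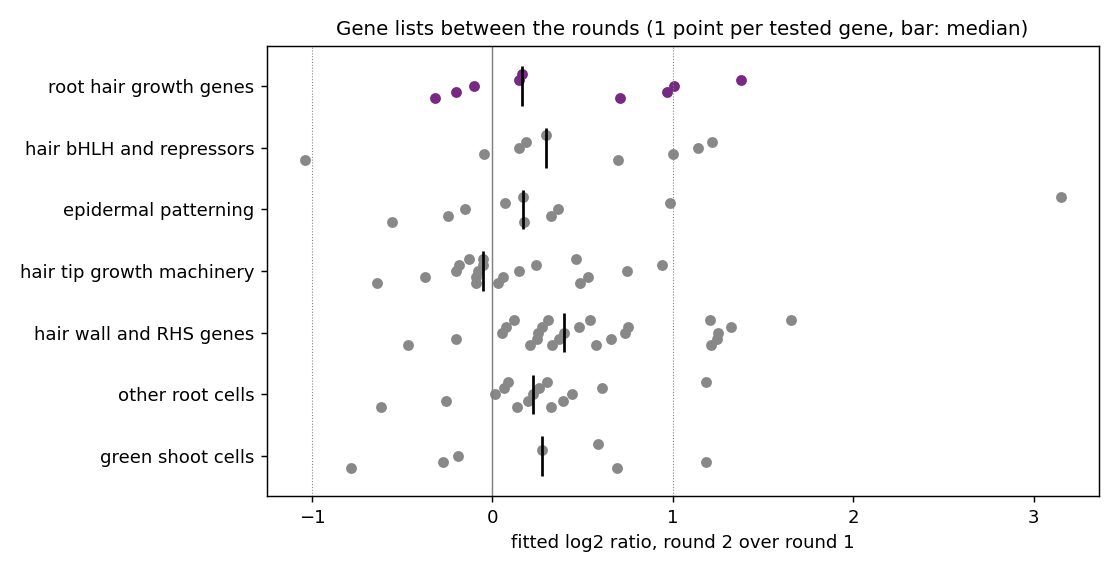
Fitted log2 ratio of round 2 over round 1 for each tested gene of the 9 root hair growth genes and of 6 further lists; points are genes, black bars the median of a list, dotted lines a 2-fold difference. The median is 0.40 for the wall and RHS genes, 0.30 for the bHLH regulators and repressors, 0.28 for green shoot cells and 0.22 for other root cells. It is 0.17 for the root hair growth genes and for epidermal patterning, and -0.05 for the tip growth machinery.

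The machinery of tip growth, in contrast, did not set round 2 apart as a list. Of its 19 genes, 4 had every round 2 library above the rest (16.4% of all genes) and 1 below (15.8%), and the median log2 ratio of round 2 to round 1 was -0.05. Its most abundant genes were *ACT2*, an actin of vegetative tissue, at 1363 to 2009 CPM, and *FER*, a receptor kinase, at 311.5 to 492.0 CPM. Both are expressed well beyond hairs. The summed level of the list, of which *ACT2* was the largest part, was 2359 to 2611 CPM in round 1, 2576 to 2825 CPM in round 2 and 2987 to 3004 CPM in round 3. The median log2 ratio of round 3 to round 2 was -0.13, beside 0.02 over all genes tested. In TT2 OE against Col-0, 4 of the 19 had an unadjusted p under 0.05, all lower (5.91% of all genes), and 14 of 19 ratios were negative. The median log2 ratio of the 19 was -0.06 there, beside 0.00 over all genes tested. The lowest adjusted p was that of *MRH1*, a receptor-like kinase gene of hair growth, at 13.6, 14.95 and 12.2 CPM in TT2 OE and 20.8, 18.9 and 14.9 CPM in Col-0 (log2 ratio -0.41 ± 0.10, adjusted p = 0.0836 by edgeR).

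Of 9 further bHLH regulators and repressors of hair growth, 1 had an unadjusted p under 0.05 in TT2 OE against Col-0 and was lower (5.91% of all genes). Round 2 lay wholly above the other rounds for 1 of the 9 (16.4% of all genes) and below for 1 (15.8%). The gene above was *GTL1*, a trihelix repressor that ends hair growth, with 307.5 CPM in TT2 OE, 364.1 CPM in MYB5 OE and 274.3 CPM in Col-0 in round 2, against 156.3, 119.6 and 130.1 CPM in round 1. *GTL1* is not limited to hairs. AT1G76880 followed it in abundance, at 46.8 to 84.4 CPM. Of 10 genes of epidermal patterning, 2 had an unadjusted p under 0.05 in TT2 OE against Col-0, both higher (6.85% of all genes). These were *GL2*, which holds the hair programme off, at 8.07, 8.39 and 10.02 CPM in TT2 OE and 5.76, 5.74 and 9.30 CPM in Col-0 (log2 ratio 0.38 ± 0.13, adjusted p = 0.228 by edgeR), and *TTG1*, at 57.3, 61.3 and 49.1 CPM in TT2 OE and 46.0, 51.1 and 44.3 CPM in Col-0 (log2 ratio 0.24 ± 0.08, adjusted p = 0.230). Neither passed. In MYB5 OE against Col-0, 1 of the 10 was higher (3.89% of all genes) and 1 lower (4.37%) at that unadjusted p. Round 2 lay wholly above the other rounds for 2 of the 10 (16.4%) and below for 1 (15.8%). Only *TRY* was at least 2-fold higher in round 2 than in round 1 in every genotype (5.15% of all genes), by a fitted 8.87-fold. It had 0.275 to 0.409 CPM in round 1, 2.33 to 4.145 CPM in round 2 and 1.75 to 3.22 CPM in round 3. *SCM*, a receptor-like kinase of patterning, ran from 10.48 to 22.8 CPM.

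Markers of other cells also differed between the rounds. The summed level of 16 genes of other root cells was 241.1 to 275.8 CPM in round 1, 354.6 to 374.5 CPM in round 2 and 354.2 to 449.5 CPM in round 3. The summed level of 7 genes of green shoot cells was 28170 to 31950 CPM in round 1, 31060 to 35360 CPM in round 2 and 24410 to 25090 CPM in round 3. The root sum rested on *PHO1*, a phosphate exporter gene of the stele, at 108.3 to 252.3 CPM. Without it, a choice made after the values were seen, the sum of the other 15 genes was 127.6 to 159.6 CPM in round 1, 206.7 to 226.2 CPM in round 2 and 172.0 to 197.2 CPM in round 3. The median fitted log2 ratio of round 2 to round 1 was 0.22 over the root markers and 0.28 over the shoot markers, beside -0.03 over all genes tested. That of round 3 to round 2 was -0.23 over the root markers and -0.45 over the shoot markers, beside 0.02 over all genes tested. In round 3 the summed level of the 9 hair genes was 94.2 CPM in TT2 OE and 122.2 CPM in Col-0, against 165.9 to 199.3 CPM in round 2. Of these root markers 2 of 15 tested, and of the shoot markers 3 of 7, had every round 2 library above the rest, as had 16.4% of all genes. *SCR*, of the endodermis and stem cell niche, was a large part of the sum without *PHO1*. It had 41.9 to 48.6 CPM in round 1, 94.15 to 106.8 CPM in round 2 and 80.2 to 88.0 CPM in round 3. *CASP1*, the next in abundance, overlapped between the rounds, at 28.2 to 38.3 CPM in round 1 and 31.9 to 37.8 CPM in round 2. A sum without both *PHO1* and *SCR* was not computed. *NRT2.1* was near 0, at no more than 0.0861 CPM, and not tested. The shoot markers did not move one way between rounds 1 and 2. *RBCS1A*, a Rubisco subunit gene, was the most abundant of them. It had 9224 to 10070 CPM in round 1, 12950 to 16460 CPM in round 2 and 8951 to 10370 CPM in round 3. *LHCA1*, of a light-harvesting protein, had 4893 to 5610 CPM in round 1, 4492 to 4740 CPM in round 2 and 3185 to 3497 CPM in round 3. The means of *CAB3* and *LHCB3* were also lower in round 2 than in round 1, and those of the other shoot markers were higher. The part of cell make-up in the differences between rounds was not tested.

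Across all genes tested, the 10 closest to the mean profile of the 9 genes over the 8 libraries had an r from 0.946 to 0.985. They were, in falling order, AT2G15300, *HDG11* (a homeodomain factor of the *GL2* family), AT3G56570, *PRMT6*, AT4G34770, *NAC096*, *RSH3* (AT1G16440, which carries a root hair specific synonym in the reference), AT3G59120, AT1G35780 and *UCC3*. Except for *HDG11* and *RSH3*, each lay higher in every round 2 library than in any other. AT2G15300, for example, had 2.29 to 3.40 CPM in round 1, 3.49 to 4.19 CPM in round 2 and 1.79 to 2.82 CPM in round 3. None of the 10 was in the lists above.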

How the data were processed

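RNA of 8 libraries of whole seedlings was sequenced by the study on a NextSeq 500 after preparation with a directional kit, and the authors mapped reads with CLC Genomics Workbench to TAIR10. The values used are the deposited counts of reads per gene, as whole numbers. Not used were 24 further columns, of normalized values, and the 4 columns of a library (T2) for which there is no sample. Genes were filtered with filterByExpr of edgeR 4.0.16 (R 4.3.3), scaled by TMM and compared by the quasi-likelihood test with genotype and round as terms over all 8 libraries (3 residual degrees of freedom), Benjamini-Hochberg adjusted over 20382 genes, with calls at an adjusted p under 0.05. The method was also run on counts simulated from a fit with round as a term, which cannot test the rounds themselves. Log2 CPM used a prior count of 2; levels between genes were divided by the length of the longest annotated transcript. The study's methods state no covariate. The common dispersion was 0.0107 with round as a term and 0.130 with genotype alone. A chi-square comparison of counts found each pair of libraries to differ beyond sampling noise.

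The members, the 6 other lists, the rounds and the tests were chosen with earlier results of these data known. Named are the 9 genes, the genes of each other list that were called, or otherwise its 2 most abundant, and the 10 genes most like the 9. *MRH1*, *XTH14*, *GL2*, AT5G06630, *LRX2*, *RHS9*, *TRY*, *CASP1*, *CAB3* and *LHCB3* were named after their values were seen. Names of 85 of 95 list loci matched the reference table, and the others are named by locus. Promoters were read from TAIR10.1; the count table holds no coordinates. Python 3.11.15 and matplotlib 3.10.9 were used. Alternatives were DESeq2 1.42.0, relative log expression factors, genotype alone, no filter, the compared genotypes alone, a prior count of 0.5 and leaving out each library.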

Additional observations from a re-analysis of the deposited data

How the results depend on the processing

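In none of 351 log2 ratios of the 9 genes between genotypes under the alternatives was a gene called; the lowest adjusted p was 0.196 by the tools run. Signs changed in 30 of them, over 12 of 27 ratios whose size was at most 0.173. *RHD6* in TT2 OE against Col-0 was 0.00425 with relative log expression factors, 0.00684 with both genotypes alone in the fit and 0.00416 with DESeq2; *COBL9* in MYB5 OE was 0.0467 with genotype alone (no replicate block) and 0.0453 with both genotypes alone, and *EXPA18* in MYB5 OE was 0.000458 with DESeq2. Leaving out 1 library gave, in TT2 OE against Col-0, log2 ratios of -0.24 to 0.25 for *RHD6*, -0.0786 to 0.16 for *RSL2*, -0.0619 to 0.20 for *RSL4*, -0.26 to 0.12 for *EXPA7*, -0.18 to 0.22 for *PRP3* and -0.21 to 0.12 for *LRX1*. In MYB5 OE against Col-0 it gave -0.15 to 0.0313 for *COBL9*, -0.22 to 0.35 for *EXPA7*, -0.21 to 0.20 for *EXPA18*, -0.000036 to 0.27 for *PRP3* and -0.0255 to 0.25 for *LRX1*, and in TT2 OE against MYB5 OE -0.44 to 0.12 for *EXPA7*. *RSL2* in MYB5 OE against Col-0 stayed between 0.44 and 0.75.

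Counts over all genes moved more; the cause was not tested. In TT2 OE against Col-0, MYB5 OE against Col-0 and TT2 OE against MYB5 OE, in this order, 287, 34 and 35 genes were called in the main model, 2, 1 and 3 with genotype alone (no replicate block), 442, 101 and 53 with no filter, 396, 144 and 93 with the compared genotypes alone and 441, 147 and 64 with DESeq2. Leaving out 1 library gave 55 (without R2) to 427 (without Q2), 3 (without P2) to 80 (without S2) and 14 (without O2) to 49 (without U2). TT2 OE against Col-0 fell to 113 without M2, 171 without O2 and 80 without P2. MYB5 OE against Col-0 was 16 without N2, 12 without Q2, 13 without R2 and 66 without U2. TT2 OE against MYB5 OE was 23 without N2 and 19 without R2.

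Between the rounds, the number of the 9 genes past 2-fold stayed at 1 for round 2 against round 1 and 0 for round 3 against round 1 under every alternative run, and was 0 to 2 for round 3 against round 2 when 1 library was left out. The number with every round 2 library above the rest stayed at 4 of 9 and was 14 to 16 of the 25 wall and RHS genes, in alternatives added after seeing the data. The labels give no replicate numbers, so round was the block of the main model, and genotype alone is the fit without it. Depth limits the regulators most, with 56 to 180 counts a library for *RSL2*, *RSL4* and *RHD6*.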
